A study of Mus musculus with 2 samples.

Results

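The lipid droplet coat is described here through 10 of the 32285 genes measured by ST: the CIDE genes Cidea, Cideb and Cidec, the perilipins Plin2, Plin3, Plin4 and Plin5, the lipase gene Pnpla2 with its inhibitor G0s2, and Hsd17b13. The 10 genes were chosen by symbol, from a selection made on the HFD and NCD levels of these same sections, so the difference between the sections is a description and not an independent result. Both groups were male C57BL/6J mice, bought at 5 weeks of age and given 1 week to acclimate. The NCD mouse received a normal chow diet and the HFD mouse a 60% high-fat diet for 14 weeks. Over a further 8 weeks both were given distilled water by mouth once daily, while other groups of the study were given drugs. Whether the diets went on during those 8 weeks is not stated. One section of 10 µm from 1 liver per diet was measured with 10x Visium, in which each barcoded spot counts RNA molecules by unique molecular identifiers (UMIs) and can hold several cells, so that more cells of a kind and more RNA per cell cannot be told apart. Diet, animal, section and slide cannot be told apart, there is no test between the sections, and the intervals printed, all exact at the 95% level, reflect counting error alone.

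A lipid droplet is a core of triglyceride and cholesteryl ester wrapped in a phospholipid monolayer that carries coat proteins. Perilipins shield the core and regulate access of lipases, CIDE proteins promote fusion and growth of droplets and the lipidation of lipoproteins, and adipose triglyceride lipase (Pnpla2) begins triglyceride breakdown. In the liver the coat changes in steatosis, and hepatocytes along the lobule, from the portal tract to the central vein, differ in their lipid metabolism.

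The promoters of Cidec and Plin4, whose levels moved together across HFD spots, of G0s2, whose direction along the lobule differed between the sections, and of Hsd17b13, which ran against the others, are shown for reference. Each sequence is the 250 bases before the RefSeq start on the minus strand of GRCm38.p6, the assembly that mm10 names, read 5′ to 3′ on the gene's strand. The windows are chr6:113435761-113436010 for Cidec (the more upstream of 2 RefSeq starts), chr17:56109783-56110032 for Plin4, chr1:193273189-193273438 for G0s2 and chr5:103977389-103977638 for Hsd17b13. Capitals mark matches, on either strand, to the letters listed after the sequences.
Cidec: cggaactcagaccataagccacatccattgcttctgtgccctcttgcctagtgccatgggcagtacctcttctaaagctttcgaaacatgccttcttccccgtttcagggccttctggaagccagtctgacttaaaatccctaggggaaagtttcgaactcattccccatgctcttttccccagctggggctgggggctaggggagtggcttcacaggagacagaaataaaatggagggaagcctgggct
Plin4: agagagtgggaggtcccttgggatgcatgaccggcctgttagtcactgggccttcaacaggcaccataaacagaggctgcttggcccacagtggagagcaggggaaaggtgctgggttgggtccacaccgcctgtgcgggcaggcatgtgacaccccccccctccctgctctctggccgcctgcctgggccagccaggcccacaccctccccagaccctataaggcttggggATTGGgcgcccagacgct
G0s2: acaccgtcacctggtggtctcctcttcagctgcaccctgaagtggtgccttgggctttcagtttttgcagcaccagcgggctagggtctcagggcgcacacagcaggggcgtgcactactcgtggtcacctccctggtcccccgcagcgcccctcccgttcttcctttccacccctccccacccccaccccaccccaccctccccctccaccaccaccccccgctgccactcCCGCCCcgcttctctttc
Hsd17b13: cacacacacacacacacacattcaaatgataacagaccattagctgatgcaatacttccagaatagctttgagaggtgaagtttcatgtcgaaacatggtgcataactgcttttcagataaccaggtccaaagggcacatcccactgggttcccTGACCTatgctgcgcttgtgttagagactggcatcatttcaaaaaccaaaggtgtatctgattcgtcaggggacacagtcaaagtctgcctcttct
Of the 10 genes, 9 matched the RefSeq promoter table. AGGTCA, the core letters read by many nuclear receptors, was present in 14.02% of 32851 promoter windows of this length and in those of Plin2, Plin5 and Hsd17b13. The spaced repeat AGGNCANAGGNCA, of the kind bound by PPAR with RXR and able to overlap AGGTCA, was in 0.338% of all windows and in none of the 9 genes. CCAAT was in 33.8% of windows and in those of Plin2, Plin3, Plin4 and Plin5, GGGCGG was in 32.7% and in those of Cideb, G0s2, Plin3, Plin5 and Pnpla2, TATAAA was in 12.4% and in that of Cideb, and CACGTG was in 6.02% and in none of them. A match describes letters in this window only.

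Over tissue there were 3692 NCD spots with 29037988 UMIs and 3594 HFD spots with 72118803 UMIs. Spots with fewer than 1000 UMIs numbered 840 and 4. Spots off tissue held 19.1% of the UMIs of the NCD slide and 2.93% of those of the HFD slide. The sections share 3173 spot barcodes, which are slide positions and not cells. GEO's labels name an immune cell type and a hematopoietic stem cell line, but hepatocyte markers (Alb, Apoa1, Ttr, Trf, Fgb and Serpina1c) together made up 89884 UMIs per 1000000 (CPM) with NCD and 98925 CPM with HFD. Skeletal muscle markers had 1 and 6 UMIs.

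Most of the lipid droplet genes were higher in the HFD section, and the CIDE genes of adipose type stood furthest apart. At least 2-fold higher were 5 of the 10 genes, Cidea, Cidec, Plin3, Plin4 and Hsd17b13, beside 10.8% of the 11913 genes with at least 100 UMIs. None of the 10 was at least 2-fold lower, beside 2.06% of genes, and nothing is read from either count because the selection used this contrast. The median log2 ratio of HFD to NCD was 1.18 over the 10 genes and 0.24 over all genes counted.

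Among the CIDE genes, Cidea, known from brown fat and steatotic liver, had 3 UMIs with NCD (0.103 CPM, 0.0213 to 0.302) and 1922 with HFD (26.7 CPM, 25.5 to 27.9). The ratio was 258 (88.1 to 1252), with its width set by the 3 NCD counts. Cidec, which drives the growth of large droplets by fusion, had 119 UMIs (4.10 CPM) with NCD and 6128 (85.0 CPM) with HFD, a ratio of 20.7 (17.3 to 25.1). Cideb, the member that hepatocytes express constitutively and that takes part in lipoprotein lipidation, had 139 CPM with NCD and 274 CPM with HFD, a ratio of 1.98 (1.91 to 2.05). By UMIs, which are counts near the 3′ ends of transcripts and are not scaled by length, Cideb led the CIDE genes and Cidea came last in both sections.

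Of the perilipins, Plin2, the main coat protein of hepatocyte droplets, had the most UMIs, at 388 CPM with NCD and 697 CPM with HFD (log2 ratio 0.84). Plin4, which coats nascent droplets in adipocytes, had the largest perilipin ratio, at 4.89 CPM and 38.3 CPM, or 7.83-fold (6.61 to 9.33). Plin3, a soluble perilipin that binds small droplets, had 14.1 CPM and 36.4 CPM (2.58-fold, 2.32 to 2.87). Plin5, which links droplets to mitochondria in oxidative tissues, had 49.8 CPM and 82.0 CPM (log2 ratio 0.72). All perilipins measured were higher in the HFD section, with Plin4 and Plin3 past 2-fold and Plin2 and Plin5 below it. Plin1, the adipocyte perilipin, had 1 UMI with NCD and 4 with HFD.

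Pnpla2, the lipase gene, was the one gene of the 10 that was lower in the HFD section, at 82.3 CPM with NCD and 70.9 CPM with HFD (log2 ratio -0.21, -0.29 to -0.14). Its log2 ratio was -0.43 after thinning to 1000 UMIs per spot and -0.0011 once the mean of the spots off tissue was subtracted, so the difference was not held by every alternative. G0s2, which encodes a small protein that inhibits this lipase, was higher, at 197 CPM and 314 CPM (log2 ratio 0.68). Hsd17b13, a droplet-associated retinol and steroid dehydrogenase known from human fatty liver genetics, had 273 CPM and 848 CPM, a ratio of 3.11, and had the most UMIs of the 10 genes with HFD, while Plin2 had the most with NCD.

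**Figure D1:**
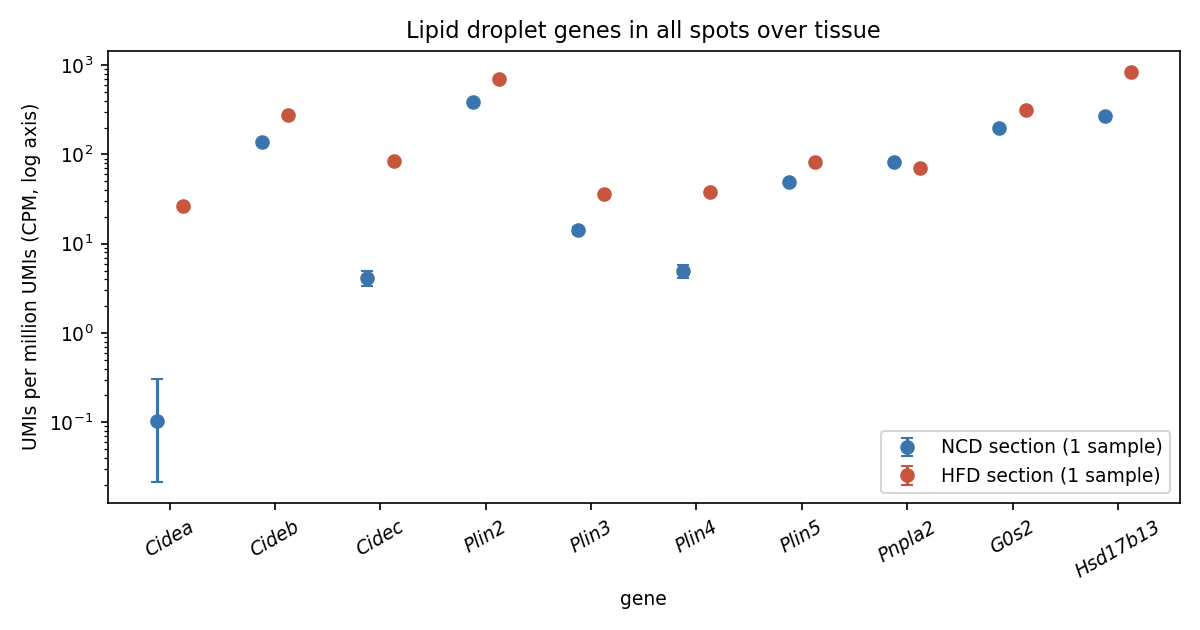
Levels of the 10 lipid droplet genes in all spots over tissue, as UMIs per 1000000 (log axis), with 1 point per section and exact 95% Poisson intervals (counting error only). Cidea, Cidec and Plin4 are furthest apart, from 0.103 to 26.7 CPM for Cidea, and Pnpla2 is the one gene with the NCD point above the HFD point.

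Spots off tissue were used as a measure of captured free RNA, which assumes that they hold no tissue. On the NCD slide 1221 of the 1300 spots off tissue had at least 1000 UMIs, as did 2852 of the 3692 over tissue. Whether some spots off tissue held tissue RNA was not tested, so the subtraction may also have removed it. On the NCD slide Cidea had 0 UMIs in 1300 spots off tissue, which allows a share of up to 0.231% of such spots with a UMI, and Plin4 had 7.13 CPM there. On the HFD slide Cidea had 27.1 CPM off tissue (20.6 to 35.0), so its level per UMI was the same on and off tissue within counting error, and Cidec had 66.1 CPM off tissue. The part of free RNA in the levels was not tested. With the mean of the spots off tissue subtracted, the log2 ratio of HFD to NCD was 6.40 for Cidea and 4.73 for Cidec. For Plin4 it was 7.04, against 2.97 without subtraction. A spot held a median of 4187.5 UMIs over tissue and 3383 off tissue with NCD, against 18549 and 1175.5 with HFD. The subtraction thus took a larger part of the NCD counts. Plin4 had 142 UMIs in 3692 NCD spots over tissue and 49 in 1300 off tissue, which left little of its NCD count. Thinning to 1000 UMIs gave 6.61 for Cidea and 4.83 for Plin4, and spots of 3000 to 10000 UMIs, a range chosen after seeing the data, gave 6.67 and 3.23. The size of the Plin4 ratio thus depended on these choices. For Cidea the values from thinning and from spots of 3000 to 10000 UMIs lay within the counting interval of its log2 ratio (6.46 to 10.29). The direction was the same throughout for both genes. The NCD level of Plin4 per UMI was no higher on tissue (4.89 CPM) than off it.

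Detection was compared at equal depth, after every spot had been thinned to 3000 UMIs (2107 NCD and 3538 HFD spots). Cidea was found in 1 NCD spot (0.0475%) and in 284 HFD spots (8.03%, 7.15 to 8.97). Cidec was found in 24 NCD spots (1.14%) and in 815 HFD spots (23.0%, 21.7 to 24.5), and Plin4 in 1.90% and 10.99%. Before thinning, the shares for Cidea were 0.0813% and 34.6%, for Cidec 2.95% and 69.4%. Plin2 was in 68.6% of NCD spots and 86.7% of HFD spots at 3000 UMIs, and Hsd17b13 in 49.1% and 85.9%, so the genes that were common in the NCD section also covered more spots in the HFD section. Pnpla2 was in 23.2% of NCD spots (21.4 to 25.02) and in 18.4% of HFD spots (17.1 to 19.7). At 1000 UMIs, Cidea was in 3.34% of HFD spots over tissue and in 3.33% of 811 HFD spots off tissue. These shares do not separate tissue from free RNA, because thinning removes the difference in RNA per spot. Before thinning, Cidea was in 34.6% of HFD spots over tissue and in 4.15% of those off tissue, which were shallower.

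Lobule position was read from landmark genes, because positions of the spots were not used here. Spots with at least 1000 UMIs were ordered by the ratio of pericentral landmarks (Glul, Oat, Slc1a2, Rhbg, Gulo, Cyp2e1, Cyp1a2, Axin2 and Lgr5) to periportal landmarks (Cyp2f2, Hal, Sds, Gls2, Ctsc, Pck1, Ass1, Cps1 and Etnppl), none of them a gene of the 10, and cut into 5 bins of near equal spot number, bin 1 being the most periportal and bin 5 the most pericentral. Genes left out of the index followed it in both sections. The log2 ratio of bin 5 to bin 1 lay between 1.58 and 3.82 for the 6 pericentral check genes with HFD and between 2.02 and 3.98 with NCD, and it was below 0 for all 5 periportal check genes in each section. The median depth was 27741 UMIs in bin 1 and 14208 to 18449 UMIs in the other bins of the HFD section, and 4071 to 8733 UMIs over the bins of the NCD section.

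In the HFD section the lipid droplet genes split along the lobule, with Cidea, Cidec, Plin4 and G0s2 higher toward the central vein and Hsd17b13 higher toward the portal tract. At least 1.5-fold higher at the pericentral end were 4 of 10, beside 6.70% of 9914 genes, and at the periportal end 1 of 10, beside 4.34%. In the NCD section, where 7 of the 10 had enough UMIs to be counted, 0 of 7 were at least 1.5-fold higher at the pericentral end, beside 11.7% of 6030 genes, and 1 of 7, Hsd17b13, at the periportal end, beside 2.79%.

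Cidea in the HFD section was 6.16, 14.02, 23.6, 40.2 and 62.3 CPM from bin 1 to bin 5, so each bin lay above the one before it with no overlap of intervals. The 2 ends differed by a log2 ratio of 3.34 (3.07 to 3.62), or 10.1-fold. In the NCD section Cidea had 1 UMI in bin 1, 2 UMIs in bin 5 and 0 in the 3 bins between. After thinning to 3000 UMIs, the share of HFD spots with a Cidea UMI was 1.96% in bin 1 (1.08 to 3.27) and 17.6% in bin 5 (14.9 to 20.6).

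Cidec was 37.2, 67.7, 99.0, 129 and 125 CPM over the HFD bins, with bins 4 and 5 overlapping, and the log2 ratio of the ends was 1.75 (1.62 to 1.87). Plin4 was 20.4, 34.4, 40.6, 52.9 and 54.7 CPM (log2 ratio 1.42, 1.25 to 1.60). Both therefore reached a plateau over the last 2 bins, while Cidea did not. In the NCD section Plin4 was also higher pericentrally, with 12 UMIs in bin 1 (2.93 CPM) and 63 in bin 5 (10.1 CPM), a log2 ratio of 1.79 (0.89 to 2.82) that had too few UMIs to enter the count above. Cidec had 12 and 32 UMIs at the NCD ends (log2 ratio 0.81, -0.18 to 1.91), which its interval does not separate from 0.

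Plin2 was 581 CPM in bin 1 and 800 CPM in bin 5 of the HFD section (log2 ratio 0.46, 0.43 to 0.50), and 361 CPM and 424 CPM in the NCD section (0.23, 0.14 to 0.33). Cideb had a log2 ratio of 0.41 (0.35 to 0.47) with HFD and 0.09 (-0.06 to 0.25) with NCD. Plin3 had 0.24 (0.07 to 0.41) and -0.10 (-0.55 to 0.37). The median over all genes counted was 0.11 with HFD and 0.16 with NCD, so Plin2, Cideb and Plin3 lay above it with HFD, while with NCD Cideb and Plin3 lay below it. Plin5 had 0.22 (0.11 to 0.33) with HFD and 0.34 (0.08 to 0.61) with NCD, where the sign turned with thinning to 1000 UMIs (-0.18). Pnpla2 was 63.6 CPM and 79.9 CPM at the HFD ends (0.33, 0.21 to 0.45). At the NCD ends it was 72.3 CPM and 96.8 CPM (0.42, 0.22 to 0.63), so it sloped the same way in both sections. The size of its NCD log2 ratio varied, at 0.14 with fewer bins, 0.12 in spots of 2882 to 13983 UMIs and 0.68 after thinning to 1000 UMIs.

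**Figure D2:**
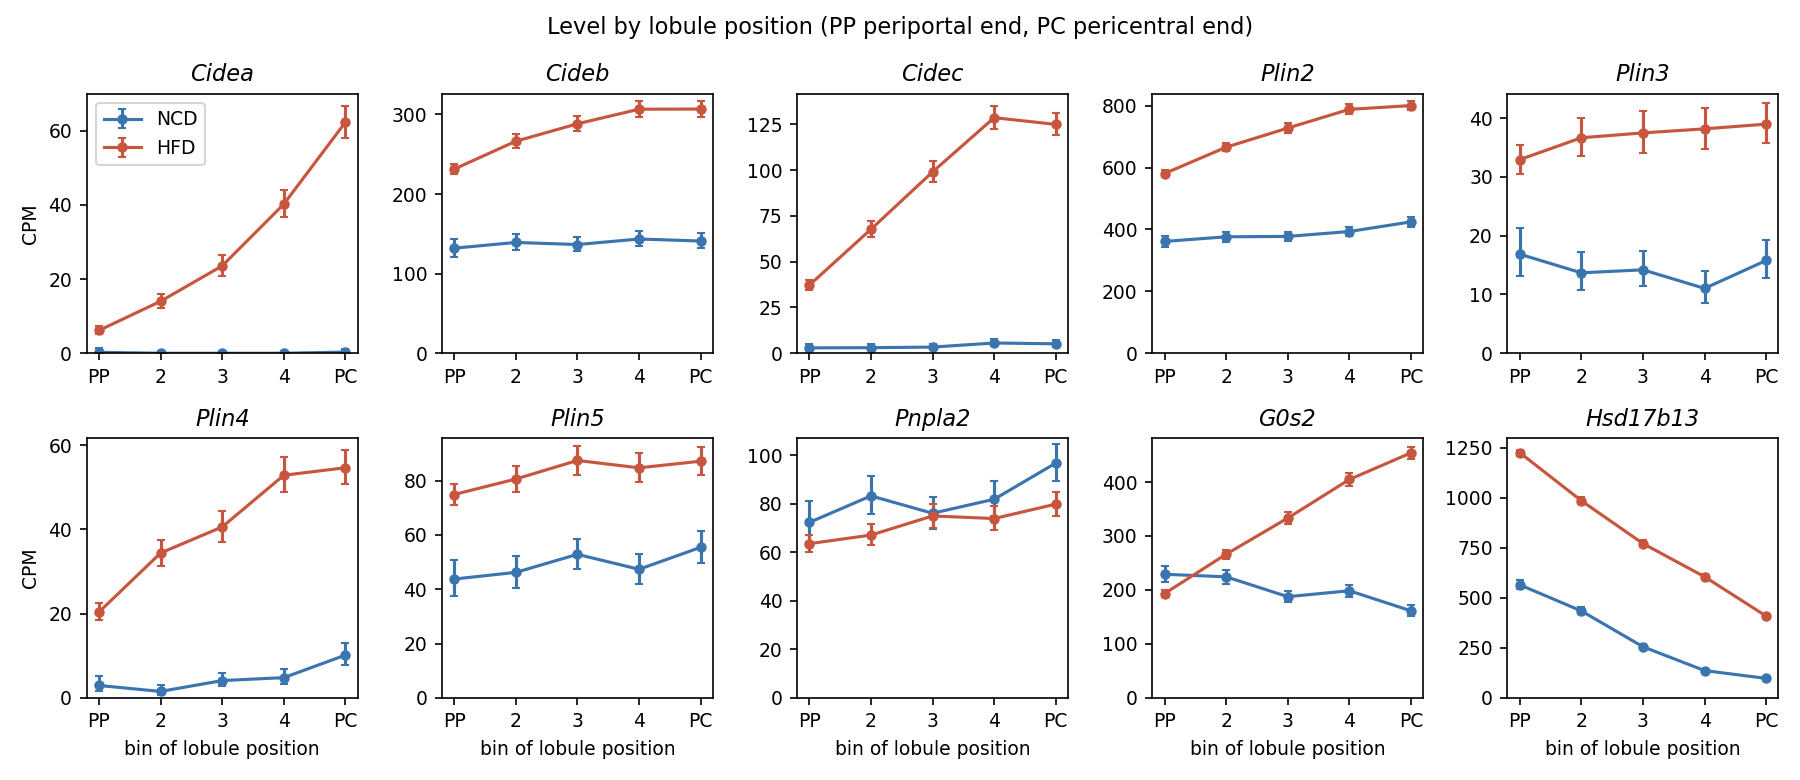
Level of each of the 10 genes (UMIs per 1000000, linear axis from 0) over 5 bins of lobule position in each section, with exact 95% Poisson intervals. In the HFD section Cidea runs from 6.16 to 62.3 CPM and Hsd17b13 from 1225 to 408 CPM, and the G0s2 lines of the sections cross between bins 1 and 2.

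G0s2 sloped in opposite directions in the sections. With NCD it was 229, 224, 187, 198 and 161 CPM from bin 1 to bin 5 (log2 ratio of the ends -0.51, -0.64 to -0.38). In the HFD section it was 193, 266, 333, 405 and 454 CPM (log2 ratio 1.23, 1.17 to 1.29). The HFD to NCD log2 ratio was accordingly -0.24 (-0.35 to -0.14) in bin 1 and 1.49 (1.40 to 1.59) in bin 5, so G0s2 was lower in the HFD section at the periportal end and higher at the pericentral end. The difference in slope was not tested, since each section is 1 sample. In a narrower range of depth within each section (spots of 2882 to 13983 UMIs with NCD and 12325 to 26457 with HFD, a choice made after seeing the data), where the HFD bins had medians of 17547 to 20711 UMIs, the ends differed by -0.42 and 1.12.

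**Figure D3:**
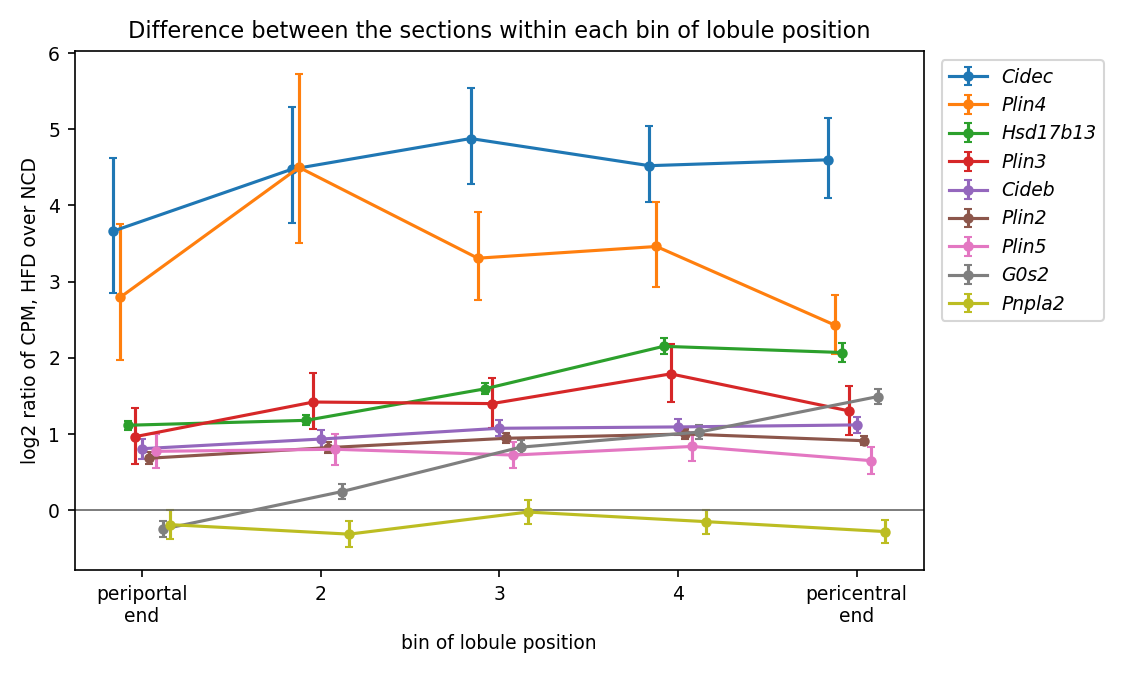
Log2 ratio of HFD to NCD levels within each bin of lobule position for the 9 genes with UMIs in every NCD bin, with exact 95% intervals. G0s2 runs from -0.24 at the periportal end to 1.49 at the pericentral end, while Pnpla2 lies near or below 0 throughout.

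The ratio of G0s2 UMIs to Pnpla2 UMIs followed G0s2. Neither the proteins nor lipase activity were measured here. With NCD there were 3.17 G0s2 UMIs per Pnpla2 UMI in bin 1 (2.77 to 3.62) and 1.67 in bin 5 (1.504 to 1.85). In the HFD section there were 3.04 in bin 1 (2.86 to 3.24) and 5.69 in bin 5 (5.32 to 6.08). The sections overlapped at the periportal end and were furthest apart at the pericentral end. The ratio compares UMIs of both genes in the same spots and does not depend on the total used for scaling.

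**Figure D4:**
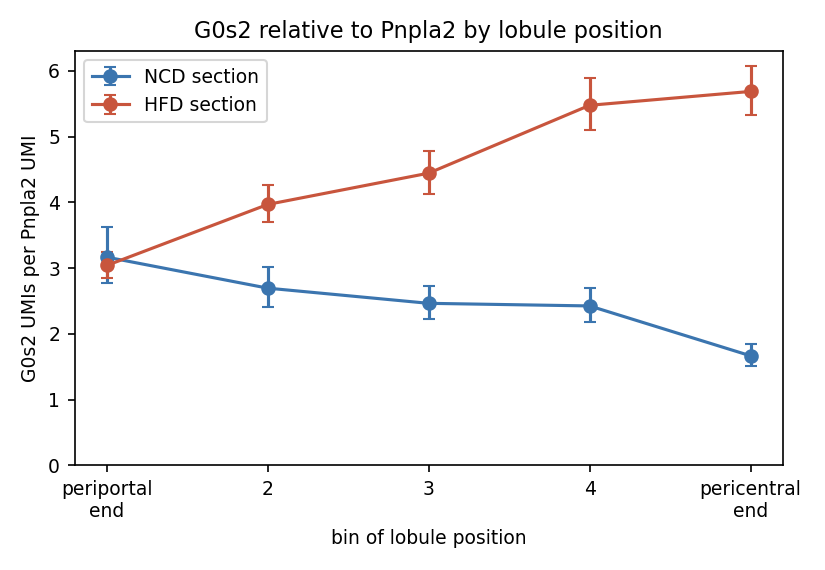
G0s2 UMIs per Pnpla2 UMI in each bin of lobule position (linear axis from 0), with exact 95% conditional binomial intervals. The sections start together, at 3.17 (NCD) and 3.04 (HFD), and end at 1.67 and 5.69.

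Hsd17b13 was periportal in both sections. It was 565, 434, 255, 136 and 97.1 CPM over the NCD bins (log2 ratio of the ends -2.54, -2.67 to -2.41) and 1225, 985, 771, 605 and 408 CPM over the HFD bins (-1.59, -1.63 to -1.54). The gradient was therefore shallower in the HFD section. The HFD to NCD log2 ratio was 1.12 (1.06 to 1.18) in bin 1 and 2.07 (1.95 to 2.20) in bin 5. A shallower gradient with HFD was not particular to Hsd17b13. All the periportal check genes had one, from Hsd17b6 (-2.91 with NCD, -2.09 with HFD) to Arg1 (-1.29 and -1.26). Among the periportal landmarks, Sds, Ass1 and Cps1 were steeper with HFD and the others shallower. The HFD level in the most pericentral bin, 408 CPM, was above the NCD level in bin 3. The share of spots with an Hsd17b13 UMI at 3000 UMIs was 81.2% and 24.9% at the NCD ends and 96.2% and 70.8% at the HFD ends. Summed over all 10 genes, the HFD level was nearly flat, between 2417 and 2523 CPM over the bins, as the periportal Hsd17b13 and the pericentral genes offset each other in the sum, while the NCD sum was 1426 CPM in bin 1 and 1007 CPM in bin 5.

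Markers of other cells varied between the sections and along the lobule, and their part in the levels and gradients was not tested. The adipocyte list (Adipoq, Plin1, Lep, Cfd, Retn and Adig) had 15 UMIs with NCD and 560 with HFD, of which Cfd made up 511 and Adig 38, while Adipoq had 3, Plin1 4, Retn 4 and Lep 0. In the HFD section this list was 1.36 CPM in bin 1 and 17.2 CPM in bin 5 (log2 ratio 3.66), the same direction as Cidea. Without the HFD and NCD spots that held an adipocyte marker, the log2 ratio of HFD to NCD was 7.83 for Cidea, 4.29 for Cidec and 2.90 for Plin4. Lipid-associated macrophage markers (Trem2, Gpnmb, Mmp12, Cd9, Spp1 and Itgax) were 70.4 CPM with NCD and 287 CPM with HFD. Their sum ran the other way, from 464 CPM in bin 1 to 144 CPM in bin 5 of the HFD section (log2 ratio -1.68). In the NCD section it ran from 139 CPM to 34.1 CPM (-2.02). Spp1 made up 1263 of the 2044 UMIs of this list with NCD and 13474 of the 20678 with HFD. The slope is that of the sum, and the cells behind it were not tested. The macrophage list (Adgre1, Cd68, Clec4f, Spic and Marco) was 70.6 CPM in bin 1 and 105 CPM in bin 5 with HFD. Its log2 ratio of the ends was 0.58 with HFD and -0.11 with NCD. Without spots holding Trem2, Gpnmb or Mmp12, Cidea had a log2 ratio of 8.10 and Cidec 4.35. Hepatocyte markers were 120475 CPM in bin 1 and 80719 CPM in bin 5 of the HFD section. Blood markers (Hba-a1, Hbb-bs, Hbb-bt and Alas2) were 5257 CPM with NCD and 1039 CPM with HFD, and along the HFD lobule they had a log2 ratio of the ends of 1.27, against -0.26 with NCD. Smooth muscle markers were 25.9 CPM with NCD and 68.7 CPM with HFD, and stellate markers 223 CPM and 457 CPM. Smooth muscle markers were periportal in both sections (log2 ratio of the ends -2.63 with NCD and -1.77 with HFD) and stellate markers pericentral (0.71 and 0.54). Mitochondrial transcripts made up 8.51% of UMIs with NCD and 5.64% with HFD.

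The spread between spots was measured as a coefficient of variation (CV) after removal of counting noise. In the HFD section Cidea was the most uneven of the 10 genes (CV 0.958), followed by Cidec (0.627), Plin4 (0.523), G0s2 (0.418) and Hsd17b13 (0.414), against a median of 0.247 over 5433 genes. Plin2 (0.213), Cideb (0.221) and Plin5 (0.226) lay below that median. Within bins of lobule position the CV was 0.469 for Cidea, 0.410 for Cidec, 0.267 for G0s2 and 0.157 for Hsd17b13, so the CV of each of these genes was smaller when position was held. The NCD values for Hsd17b13 were a CV of 0.635 and, within bins, 0.216, with a median of 0.230 over 2549 genes.

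Relative levels were also correlated between genes over the 3538 HFD spots with at least 3000 UMIs, again corrected for counting noise, for all 45 pairs. The spots share 1 library and neighbour each other in the tissue, so the correlations are descriptions. Cidec correlated with Plin4 (0.801), Plin2 (0.768) and Cidea (0.697), and Cidea with Plin4 (0.740) and G0s2 (0.718). Against 5265 genes, the 95th percentile of such correlations was 0.608 for Cidec and 0.597 for Cidea. Within bins of lobule position the values were 0.576, 0.627 and 0.411 for Cidec, and 0.486 and 0.320 for Cidea, so of these pairs Cidec and Plin2 kept the most. Plin5 and Pnpla2, the perilipin that recruits the lipase and the lipase itself, had 0.566 over all spots and 0.532 within bins, where the 95th percentile over all spots was 0.593 for Plin5 and 0.485 for Pnpla2. Cidec with Plin3 (0.447 and 0.461) and Plin5 with G0s2 (0.438 and 0.421) were also about as high within bins. Both pairs lay below the 95th percentiles of their genes over all spots, which were 0.590 for Plin3 and 0.650 for G0s2. Hsd17b13 was negative against all the others, from -0.782 with Cidea to -0.160 with Plin5, and within bins it stayed at -0.523 with Cidea but was -0.080 with G0s2, 0.158 with Plin2 and 0.166 with Plin5.

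**Figure D5:**
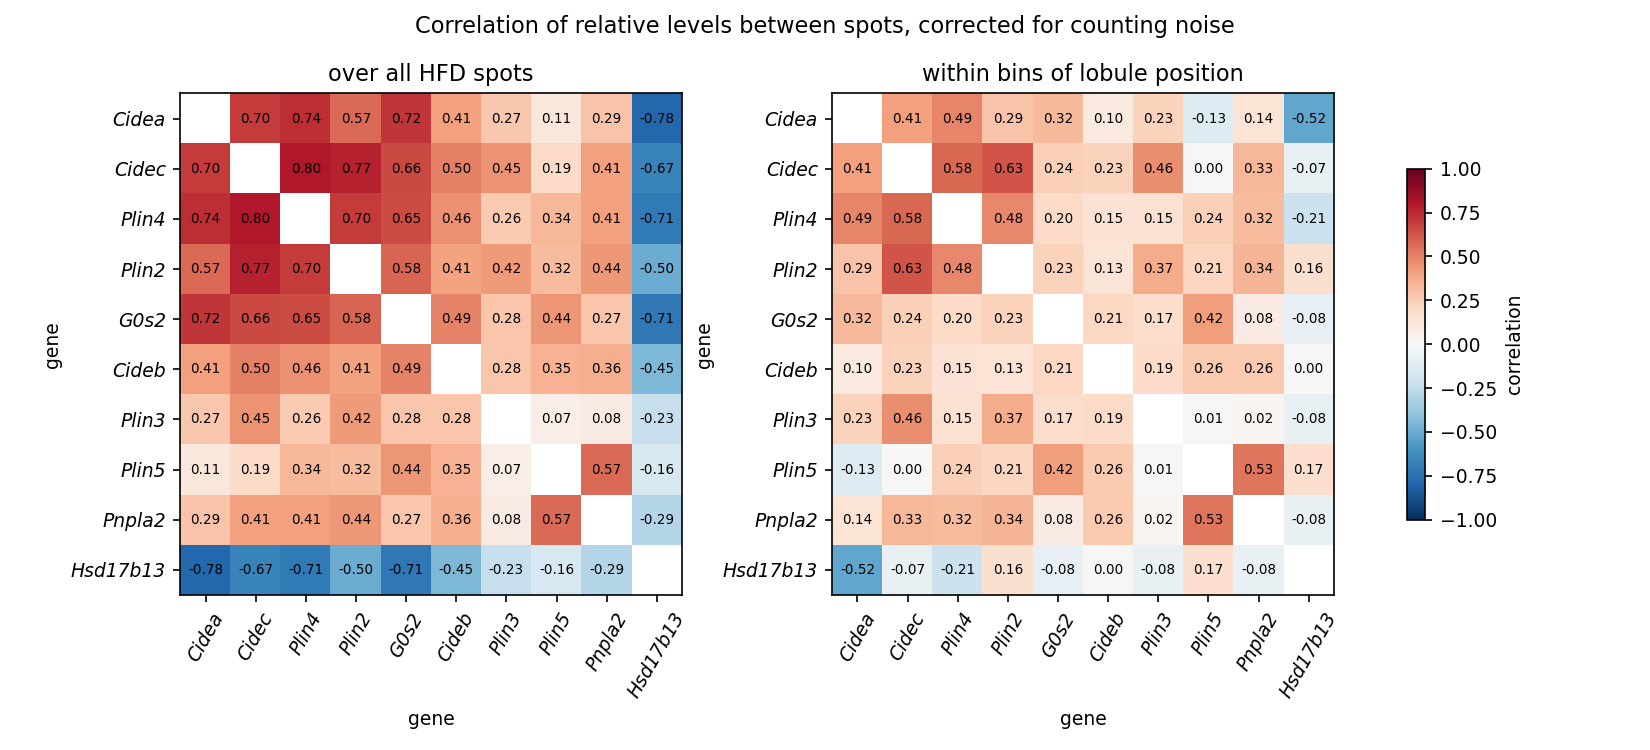
Correlation of relative levels between the 10 genes over HFD spots with at least 3000 UMIs (left) and within bins of lobule position (right), corrected for counting noise, with colour and number giving the correlation. Cidea, Cidec, Plin4, Plin2 and G0s2 form a positive block on the left, and the Plin5 and Pnpla2 pair is nearly as high on the right (0.53) as on the left (0.57).

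In the NCD section Cidea, Cidec and Plin4 had too few UMIs for such values. Plin3 had none, since its spread did not exceed counting noise. Plin2 and Plin5 correlated at 0.597 (0.578 within bins), and G0s2 and Hsd17b13 at 0.359 (0.025 within bins), the opposite sign to their -0.713 in the HFD section. Plin5 and Pnpla2 had 0.030, against 0.566 in the HFD section, and none of these differences was tested.

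Co-detection was counted in the HFD spots thinned to 3000 UMIs. A Cidec UMI was found in 28.9% of the 284 spots with Cidea (23.7 to 34.5) and in 22.5% of the others (21.1 to 24.0). Both genes were found in 82 spots, against 65.4 from the product of their shares and 77.1 from the product taken within bins of lobule position. Cidec and Plin4 were found together in 102 spots, against 89.6 and 96.4, and Cidea and G0s2 in 194, against 171 and 190. Cidea and Hsd17b13 were found together in 221 spots, fewer than the 244 of the product, and 227 within bins. The excess or deficit over the product was thus smaller once position was held, for each of these pairs. Co-detection did not follow the correlation for every pair. Cidec and Plin3 were found together in 72 spots, against 78.8 and 80.0, and Cidea and Plin4 in 33, against 31.2 and 35.0.

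For each gene the 5 genes with the most similar residuals over HFD spots were taken among 5433 genes. Cidea was most like Cyp2e1 (0.408), a pericentral landmark of the position index, then Fabp1, Gm13775, Cyp3a11 and Acaa1b. Cidec was most like Aldh3a2 (0.419), which oxidises fatty aldehydes, and so was Plin2 (0.349), while Plin4 had Cyp3a11 (0.252) and Aldh3a2 (0.251) first. G0s2 was most like Cyp2e1 (0.547), with which it had -0.128 in the NCD section. Hsd17b13 was most like Cyp2f2 (0.697), a periportal landmark, followed by Hpx, Alb, Ahsg and Gc, and its value with Cyp2f2 was 0.568 in the NCD section. Plin3 had no gene above 0.088.

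The other genes of droplet biology had a median near that of all genes between the sections, with single genes well above and below it. Of 28 listed genes for triglyceride synthesis, lipolysis, droplet surface, lipoprotein lipidation and their regulators, 26 had at least 100 UMIs. Their log2 ratios ran from -0.67 (Acsl3) to 1.80 (Mogat1), with a median of 0.24, equal to that over all genes. In the HFD section 3 of the 26 were at least 2-fold higher, beside 10.8% of all genes, and 0 at least 2-fold lower, beside 2.06%. The 3 were Mogat1, a monoacylglycerol acyltransferase (3.99 CPM and 13.9 CPM, log2 ratio 1.80), Fitm1, which partitions triglyceride into droplets (105 CPM and 220 CPM, 1.07), and Hilpda, an inhibitor of Pnpla2 (3.34 CPM and 6.99 CPM, 1.06). None of the 3 stayed past 2-fold with the mean of the spots off tissue subtracted, which gave log2 ratios of 0.92 for Mogat1, 0.51 for Fitm1 and 0.48 for Hilpda, while Lipa (1.11) and Dgat2 (1.008) passed it there. Hilpda also had 0.11 after thinning to 1000 UMIs and 0.72 as a mean of CPM per spot. Dgat2, which makes triglyceride, had a log2 ratio of 0.81, and the regulators Pparg, Srebf1 and Ppara had 0.85, 0.75 and 0.15, the last turning to -0.62 with that subtraction. Ces1d, a lipase of the endoplasmic reticulum, had -0.43, and Acsl3, which activates fatty acids at forming droplets, had -0.67. Fitm1 was pericentral in both sections (log2 ratio of the ends 2.89 with NCD and 2.04 with HFD), and Mogat1 was pericentral in the HFD section (1.60, 1.31 to 1.90). Pnpla3, a relative of Pnpla2, had 3 UMIs with NCD and 0 with HFD.

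Some of the 10 genes overlap a gene on the opposite strand in GENCODE M21, and strand use in the counting is not given in the sources used here. Cideb overlaps Nop9 over 1451 bases, and Nop9 had 392 and 985 UMIs in the NCD and HFD sections against 4026 and 19769 for Cideb. G0s2 overlaps Lamb3 over 1057 bases, with 57 and 683 UMIs for Lamb3 against 5708 and 22673. Cidea overlaps B430212C06Rik over 500 bases, with 0 and 71 UMIs for that gene. Plin5 and Plin4 lie 1797 bases apart on the same strand, and reads past the end of Plin5 were not separated from Plin4 here.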

How the data were processed

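ST libraries of 1 NCD and 1 HFD liver section were read from the UMI counts per gene and spot that the authors deposited, without normalization, for all spots and for spots called over tissue. The submitters' processing notes name Space Ranger, version 1.3.1 in the methods, and mm10. Of 32285 gene identifiers, 32158 are in GENCODE M21 on GRCm38. Levels are a gene's summed UMIs per 1000000 UMIs of the same spots (CPM). Intervals at the 95% level were exact Poisson for CPM, Clopper-Pearson for shares and conditional binomial for ratios, and a limit for a count of 0 used 3 counts. Groups came from the treatment label of each sample, and no column was left unmapped (0). Spots were thinned to 1000 or 3000 UMIs with seed 1. The position index added 100 CPM to both sums. The CV was the square root of the summed squared deviation less the expected count, over the summed squared expectation, and the correlations used the same correction. Residuals for similar genes used an overdispersion parameter of 100 and genes with at least 1000 UMIs. Counts past a fold took genes with at least 100 UMIs.

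The genes named are the 10 lipid droplet genes, the listed other droplet genes and regulators, landmark, check and marker genes, and the 5 most similar genes of each. The 10 genes and the lists were chosen with earlier results of these data known. Alternatives changed the total, the weighting and depth of spots, thinning, subtraction of spots off tissue, spots left out, bins, landmarks and pseudocount, and 2 alternatives on depth were added after seeing the data. The methods were tested on simulated data. Calculations used scipy 1.17.1, numpy 2.4.6 and pandas 2.3.3 under Python 3.11.15, and figures matplotlib 3.10.9. The depth was 29037988 UMIs (NCD) and 72118803 UMIs (HFD), and PCR duplicates were removed through UMIs, so the intervals cover counting error only. Promoters came from RefSeq on GRCm38.p6. Spot positions and images were not used here.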

Additional observations from a re-analysis of the deposited data

Results flagged for a closer look

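The position of G0s2 in the lobule had opposite signs in the sections, with a log2 ratio of the pericentral to the periportal end of 1.23 with HFD and -0.51 with NCD. With 1 section per diet the difference was not tested.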

How the results depend on the processing

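No paired analysis was possible because each diet had 1 section. Subtraction of the spots off tissue, and leaving out spots with Trem2, Gpnmb or Mmp12, each gave 6 of the 10 genes at least 2-fold higher with HFD. All other alternatives gave 5. Of all genes, 1288 of 11913 were at least 2-fold higher, 2343 of 11496 with the subtraction and 1155 of 11908 without those spots. After thinning to 1000 UMIs the number was 1505 of 11791. Nothing is read from these counts, because the selection used this contrast. Higher genes made up 84.0% of all genes past 2-fold, 73.4% after thinning to 1000 UMIs and 70.4% in spots of 3000 to 10000 UMIs. In those spots 2 of the other droplet genes were at least 2-fold lower, Acsl3 (-1.01) and Tmem159 (-1.002), against 0 in all spots, and Aup1 turned to -0.20. Subtraction of spots off tissue turned Aup1 to -0.0108, Apob to -0.0938, Hsd17b11 to 0.0199, Ppara to -0.62 and Tmem159 to -0.59, and thinning turned Hsd17b11 to 0.0302. Along the NCD lobule, Plin5 turned to -0.18 after thinning and to -0.00496 in the narrower range of depth, thinning gave 1 gene of the 10 at least 1.5-fold higher pericentrally against 0, and leaving mitochondrial and the 20 most abundant genes out of the total gave 2 periportally against 1. Along the HFD lobule the periportal count was 1 under all 7 alternatives. The pericentral count was 4, except after thinning to 1000 UMIs, which gave 6 with Plin3 (0.71) and Pnpla2 (0.70). For lobule counts under the alternatives no share over all genes is given, and nothing is read from their changes. Plin4 along the HFD lobule was 0.97 in the narrower range of depth against 1.42. Within bins, 4 of the 45 HFD correlations turned sign, those of Hsd17b13 with Cideb (0.00401), Plin2 (0.158) and Plin5 (0.166), and that of Cidea with Plin5 (from 0.115 to -0.132). The cause was not tested. NCD depth limits Cidea, Cidec and Plin4, with 3, 119 and 142 UMIs.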
